A study of Mus musculus with 14 samples.

Results

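The nuclear-encoded subunits of the mitochondrial respiratory chain were examined in mouse cortical neurons after a 1 h treatment. Members were the rows whose symbols mark complex I subunits (Ndufa, Ndufb, Ndufc, Ndufs and Ndufv with a number), succinate dehydrogenase (Sdha to Sdhd), complex III subunits (symbols that begin with Uqcr) and cytochrome c oxidase subunits (Cox4 to Cox8). Of 68 matching rows, the pseudogene Uqcrh-ps1 had no value in any library, which left 67 members of 18128 rows with a value. Of these, 61 passed the filter on low values and were tested among 10877 rows, and 6 fell below it.

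Electrons enter the chain at complex I from NADH or at complex II from succinate, pass through complex III and reach oxygen at complex IV. Complexes I, III and IV pump protons, and ATP synthase uses the resulting gradient. Most subunits are encoded in the nucleus and imported, while a small core of complexes I, III and IV is encoded by mitochondrial DNA. Neurons depend on this pathway for much of the ATP that ion pumping and synaptic transmission consume.

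All 14 libraries came from primary cortical cultures of wild-type C57BL/6 mice, treated for 1 h on day 12 in vitro. The study's title concerns peptides made by the neuronal membrane proteasome (NMP) and their action on neuronal signalling. The peptide treatments carried purified NMP peptides at 4% by volume: the peptides alone in 3 libraries, the same after cleavage with proteinase K (PK) in 3 libraries, and the peptides together with 100 µM APV in 3 libraries. APV blocks NMDA-type glutamate receptors. The remaining treated cultures received 20 µM bicuculline, a blocker of GABA-A receptors that raises network activity (3 libraries), and the control cultures received 1% dimethyl sulfoxide (DMSO; 2 libraries, replicates 2 and 3). The labels name DMSO for the control cultures and not for the others, and cultures given APV without peptides were not analysed here. The design text calls the replicates biological but does not say what differed between them, and the spread behind each p-value may be technical.

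The deposited values are log2 signals that had been brought to one shared distribution, and their sums are as values per exon length would give. Levels of different genes were therefore set side by side. The length used for each gene is not given, so the order of genes is less certain, and read depth is unknown. Every library had a median of 2.19 and a maximum of 12.0, and between 15824 and 16231 rows with a value. All 6 excitatory markers were tested, with Slc17a7, a vesicular glutamate transporter, at a mean log2 signal of 6.24. Of the 6 inhibitory markers 5 were tested, with the GABA-synthesising enzyme Gad1 at 5.62. All 9 astrocyte markers and 6 of 8 oligodendrocyte-lineage markers also passed the filter, whereas 0 of 6 microglial and 0 of 6 mural and endothelial markers did. Markers of neurons and of macroglia were thus both present, and in such bulk samples fewer cells of a type and less RNA per cell cannot be told apart. Marker levels also differed between libraries of one treatment. Gfap varied most of the astrocyte markers, from 2.15 to 4.18 over all libraries and from 2.15 to 3.97 with PK-cleaved peptides. Slc1a3, another astrocyte marker, ran from 7.11 to 7.57 over all libraries.

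The upstream sequences of 4 members with motif matches and of 1 muscle-type isoform without a match are shown first, because the genes of this pathway are known for shared promoter motifs. RefSeq (GRCm38.p6) gave a promoter window for 53 of the 67 members, and the 250 bases before the gene's start are printed in the direction of transcription. For Sdhd, the bases just after this start matched no GENCODE transcript of the gene, so its start is less certain. For the other genes shown they did match. Capitals mark the NRF1 palindrome (GCGCA, any base, then GCGC) and the ETS core with its flank (CCGGAAG, or CTTCCGG where it lies on the other strand). Both motifs were searched on both strands.
Ndufs5 (complex I; chr4:123718187-123718436, minus strand): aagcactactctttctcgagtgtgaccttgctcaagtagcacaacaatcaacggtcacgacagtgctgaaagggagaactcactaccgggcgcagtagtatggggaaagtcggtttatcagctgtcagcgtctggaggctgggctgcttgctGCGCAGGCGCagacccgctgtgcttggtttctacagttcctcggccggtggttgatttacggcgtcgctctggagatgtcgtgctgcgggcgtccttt
Sdhd (complex II; chr9:50603850-50604099, minus strand): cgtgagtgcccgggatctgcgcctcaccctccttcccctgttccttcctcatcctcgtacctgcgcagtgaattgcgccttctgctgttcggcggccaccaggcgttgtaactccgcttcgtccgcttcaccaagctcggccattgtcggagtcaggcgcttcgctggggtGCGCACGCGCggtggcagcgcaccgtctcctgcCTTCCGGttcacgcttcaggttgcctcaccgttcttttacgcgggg
Uqcrh (complex III; chr4:116075071-116075320, minus strand): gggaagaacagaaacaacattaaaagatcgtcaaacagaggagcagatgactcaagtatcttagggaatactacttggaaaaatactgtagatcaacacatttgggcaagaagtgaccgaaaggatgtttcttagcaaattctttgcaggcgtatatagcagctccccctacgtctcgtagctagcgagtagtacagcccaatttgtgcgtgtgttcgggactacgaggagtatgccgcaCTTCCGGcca
Cox6a1 (complex IV; chr5:115348959-115349208, minus strand): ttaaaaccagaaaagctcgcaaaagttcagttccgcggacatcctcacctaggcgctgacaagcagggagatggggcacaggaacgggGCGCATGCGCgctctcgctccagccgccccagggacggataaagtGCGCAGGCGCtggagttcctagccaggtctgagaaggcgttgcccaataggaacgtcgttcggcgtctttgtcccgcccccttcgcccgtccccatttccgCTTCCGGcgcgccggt
Cox7a1 (complex IV, muscle-type; chr7:30183921-30184170, plus strand): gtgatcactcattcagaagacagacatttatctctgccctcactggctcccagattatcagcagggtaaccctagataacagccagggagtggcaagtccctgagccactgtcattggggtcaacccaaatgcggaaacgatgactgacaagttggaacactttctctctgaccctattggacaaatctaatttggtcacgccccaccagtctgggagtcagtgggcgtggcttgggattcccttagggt

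Over the whole window, from 250 bases before to 50 bases after the start, the NRF1 palindrome lay in 11 of the 50 tested members with a window (22%). It lay in 12.6% of the windows of 8372 other tested rows and in 5.19% of 27025 gene windows. The ETS core also lay in 11 of the 50 members (22%), close to the 20.9% of other tested rows. The YY1 motif AAGATGGCG lay in 5 members (10%, against 3.93% of other tested rows), but in the upstream bases alone it lay in 0 members, against 1.49% of other tested rows. Over the whole window, the cyclic AMP response element TGACGTCA lay in 4 members (8%, against 3.93%), and the TATA motif TATAAA in 4 members (8%, against 7.85%). Members with and without the NRF1 palindrome had similar median log2 levels, at 6.45 for 11 members and 6.43 for 39. With the ETS core the median was 6.76 for 11 members and without it 6.33 for 39, and with the YY1 motif it was 6.14 for 5 members and without it 6.46 for 45. These differences were not tested. A match describes these letters and not binding of a factor.

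The respiratory chain genes were among the most abundant transcripts of the cultures. By mean level over all libraries, 51 of the 67 members ranked in the first 1000 of 18128 rows and 5 ranked in the first 100, with Cox4i1, the ubiquitous form of subunit 4 of cytochrome c oxidase, at rank 53. The median log2 level was 6.45 over the 61 tested members, against 3.30 over all tested rows. The median log2 level was 6.92 for the 20 members of complex IV, 6.69 for the 8 of complex III, 6.42 for the 4 of complex II and 6.24 for the 35 of complex I, but the spread within each complex exceeded most of these steps.

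**Figure D1:**
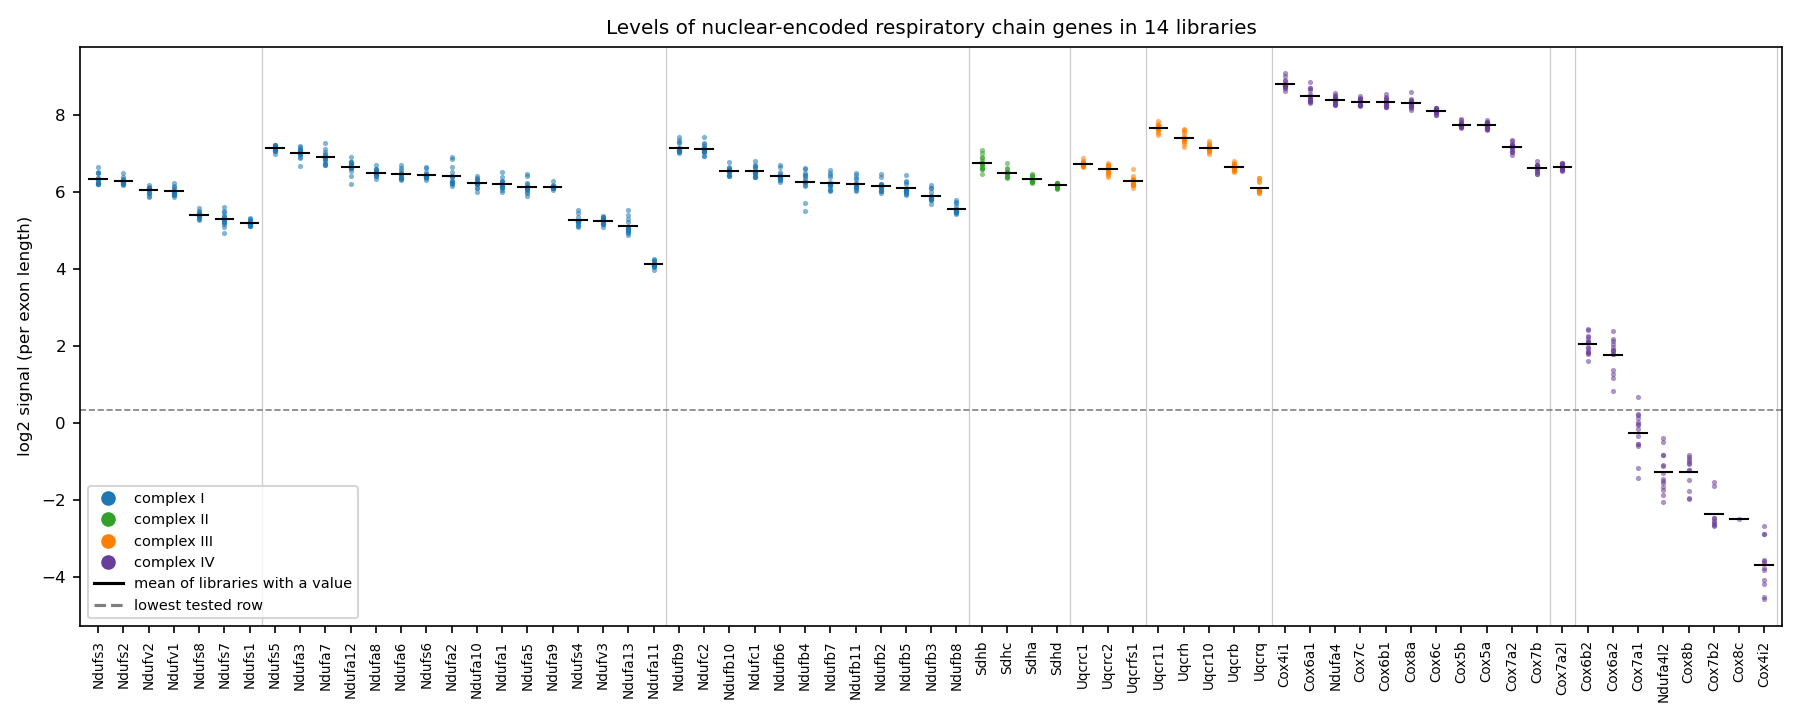
Each dot is the log2 signal (vertical axis, per exon length) of one gene in one library, with genes along the horizontal axis grouped by complex and role and ordered by level; black bars are means over libraries with a value and the dashed line is the level of the lowest tested row. Widely expressed complex IV subunits stand highest at a median of 8.31, and 6 tissue isoforms lie below the dashed line.

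Within complex I, the 7 tested subunits of the catalytic core, which hold the flavin and the iron-sulfur clusters, had a median log2 level of 6.03. They ran from Ndufs1 at 5.20 to Ndufs3 at 6.35. The merged exons of Ndufs1 hold 8086 bases and its longest coding transcript 2661, so its place depends on the length used. The 16 accessory subunits of the A, S and V series had a median of 6.33, and the 12 of the B and C series, most of which belong to the membrane arm, had a median of 6.26. Ndufb9 (7.16), Ndufs5 (7.14) and Ndufc2 (7.13) were the highest complex I genes, and Ndufa11 (4.13) and Ndufa13 (5.11) were the lowest. Ndufa11 stood at rank 3519, the lowest of any member outside the tissue isoforms.

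The means of the 4 subunits of succinate dehydrogenase lay closer together than those of the other complexes, which hold more members. The flavoprotein Sdha had a mean log2 level of 6.33, the iron-sulfur protein Sdhb 6.76, and the membrane anchors Sdhc and Sdhd 6.51 and 6.18. Sdhb ranged over libraries between 6.47 and 7.10, a spread wider than the distance between the highest and the lowest subunit mean. In complex III, Uqcr11 (7.68), the hinge protein gene Uqcrh (7.42) and Uqcr10 (7.16) were above the core protein genes Uqcrc1 (6.74) and Uqcrc2 (6.60), and the Rieske protein gene Uqcrfs1 (6.28) and Uqcrq (6.12) were lowest.

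Complex IV held both the highest and the lowest members. The 11 widely expressed subunits had a median log2 level of 8.31, led by Cox4i1 (8.81), Cox6a1 (8.51) and Ndufa4 (8.40), a subunit first assigned to complex I and now placed in complex IV. The lowest of them were Cox7b (6.63) and Cox7a2 (7.17). Cox7a2l, which takes part in joining complexes III and IV, was at 6.66. The 8 isoforms known from muscle, lung, testis or low oxygen had a median of -1.27 by their means over libraries with a value. These means ran from Cox4i2 at -3.67 to Cox6b2 at 2.05. By rank over all rows, Cox7b2 (14641, 9 libraries with a value) and Cox8c (17420, 1 library) stood below Cox4i2 (14495).

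Each tissue isoform was far below its widely expressed partner in every library where both had a value. Cox6a1 exceeded the heart and muscle form Cox6a2 by 107-fold on average (geometric mean, range 70.1 to 190 over 14 libraries). Cox6b1 exceeded the testis form Cox6b2 by 78.4-fold (56.3 to 104), and Cox7a2 exceeded the muscle form Cox7a1 by 171-fold (99.6 to 374). These were the pairs with the smallest distance.
Larger distances separated Cox8a from Cox8b (768-fold, 12 libraries with both), Ndufa4 from Ndufa4l2, a gene known to respond to low oxygen (816-fold, 14 libraries), Cox7b from Cox7b2 (496-fold, 9 libraries), and Cox4i1 from the lung form Cox4i2 (5705-fold, 12 libraries). Cox8c had a value in 1 library. Libraries without a value were left out, so these folds hold for libraries in which the isoform was listed. Of 3 muscle markers, Myh7 (mean log2 signal -0.18) and Ckm (-3.46) were likewise below the filter, and Actn2 (1.08) passed it.

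The filter kept only Cox6b2 (rank 8270) and Cox6a2 (rank 8822) of the tissue isoforms. Cox7a1, at rank 11479 and a mean log2 level of -0.25, and Ndufa4l2, at rank 12292 and -1.27, were the members nearest outside it. Of the 67 members, 12 share over 10% of their 50-base windows with transcripts of other genes, led by Uqcrb (43.2%), Ndufb4 (37.0%), Ndufs3 (35.8%) and Ndufs5 (31.1%), and 41 share none. Exons of 20 members overlap a gene on the opposite strand. Neither the strand setting nor the handling of reads with several matches is given in the sources used here, so the levels of these members are less certain.

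No member passed the test in any comparison. Of 61 tested members, 0 were called by limma at an adjusted p under 0.05 in each of 7 comparisons and in the test of any difference among the 5 groups. That last test gave calls for 1.65% of all rows, and at an unadjusted p under 0.05 it gave 1 member and 9.48% of all rows. These calls were few among all rows as well, and the percentages are given with each comparison.

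Bicuculline against DMSO asked what raised network activity does to these genes within 1 h. Over all rows 0.469% were called, and 0 of 61 members were. At an unadjusted p under 0.05 the count was 1 member, against 3.14% of all rows. The members' median log2 change was 0.00, with 31 above 0, and that of all rows was -0.03. The members' median was -0.05 without bicuculline replicate 3 and 0.03 without bicuculline replicate 2. The 95% interval of the change lay within 0.5 log2 units of 0 for 58 of 61 members; those whose interval reached further were Ndufa2, Ndufb4 and Cox6a2. The lowest changes were those of Ndufb4 (-0.42), Ndufa12 (-0.20) and Cox7b (-0.17), and the highest those of Ndufa7 (0.20), Sdhb (0.19) and Cox6a2 (0.15).

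NMP peptides against DMSO gave a similar count. Calls covered 0.0184% of all rows and 0 of 61 members, with 1 member and 2.02% of all rows at an unadjusted p under 0.05. The members' median change was 0.05, with 41 above 0, and that of all rows was -0.04. Without NMP peptides replicate 1 the members' median was -0.02. Ndufb4 (-0.40), Ndufa12 (-0.25) and Ndufa10 (-0.18) were lowest, and Ndufa7 (0.26), Ndufa2 (0.23) and Cox6a2 (0.22) were highest. Without NMP peptides replicate 1, Ndufa2 was at 0.04 and Ndufa12 at -0.10, and without NMP peptides replicate 2 they were at 0.36 and -0.35. Ndufa10 was at -0.10 without DMSO replicate 3 and -0.27 without DMSO replicate 2. The interval stayed within 0.5 log2 units of 0 for 52 members.

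PK-cleaved NMP peptides against DMSO gave no calls at all, at 0% of rows and 0 of 61 members by limma. At an unadjusted p under 0.05 the counts were 0 members and 1.05% of all rows. The members' median change was 0.01, against -0.04 over all rows, and the members' median was -0.06 without PK-cleaved peptides replicate 1 and 0.05 without replicate 2. The changes ran from -0.18 for Cox6a2 to 0.18 for Cox8a. Next to these ends stood Ndufa9 and Uqcr10, both at -0.09, and Ndufa13 (0.16) and Ndufa7 (0.13). The interval stayed within 0.5 log2 units of 0 for 58 members.

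NMP peptides with APV against DMSO gave calls for 0.625% of all rows and for 0 of 61 members. At an unadjusted p under 0.05 there were 0 members, while 11.5% of all rows passed. The members' median change was 0.00, against -0.05 over all rows. The median of the members was -0.06 without NMP peptides with APV replicate 2 and 0.03 without replicate 1 of that group. Cox6a2 (-0.54), Ndufb4 (-0.20) and Cox6b2 (-0.18) were lowest, and Cox6a1 (0.16), Uqcrh (0.15) and Cox8a (0.14) were highest. The interval stayed within 0.5 log2 units of 0 for 57 members.

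**Figure D2:**
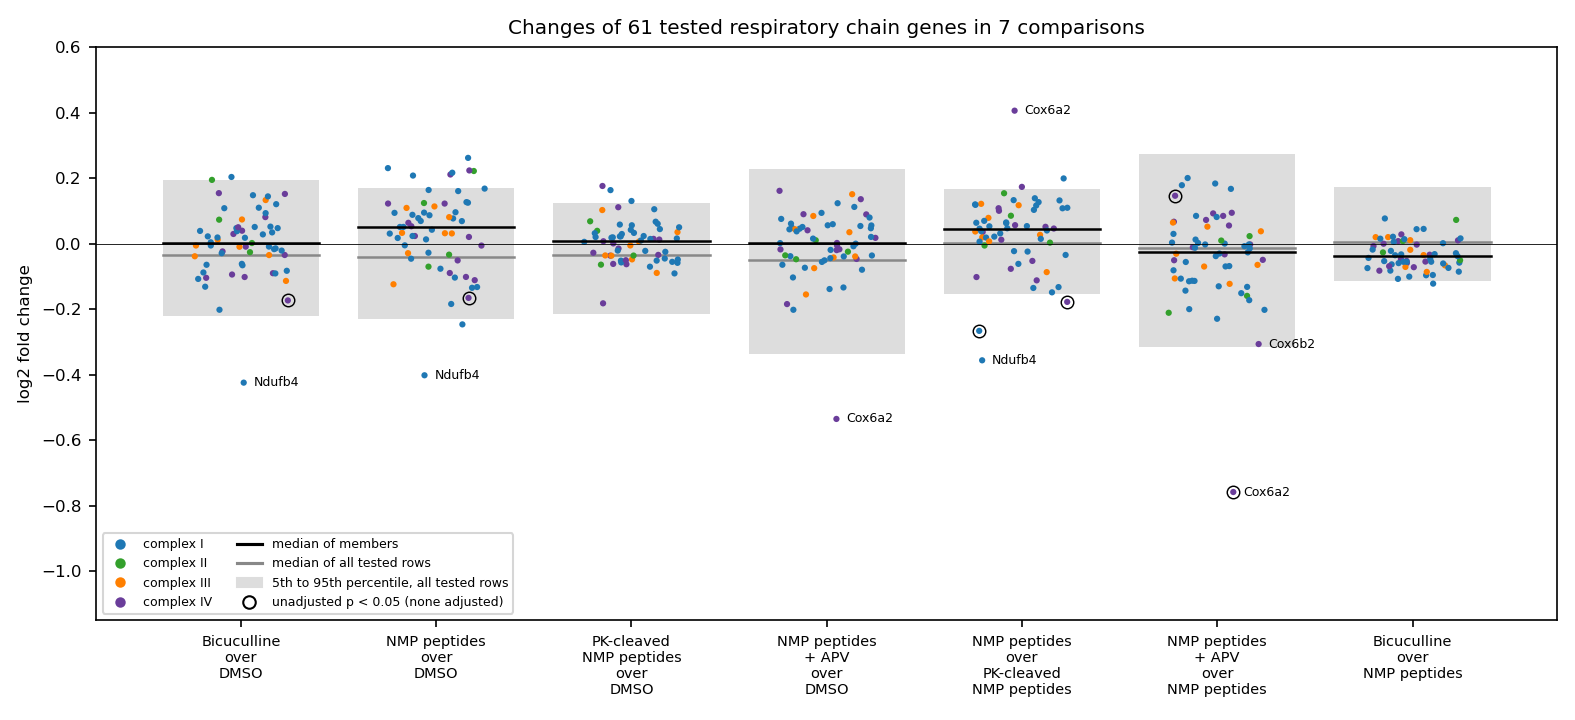
Each dot is the log2 fold change (vertical axis) of one of 61 tested members in one of 7 comparisons (horizontal axis), coloured by complex; black lines are member medians, grey lines and boxes are the median and the 5th to 95th percentile of all tested rows, and rings mark an unadjusted p under 0.05. The member medians lie between -0.04 and 0.05, and Cox6a2 and Ndufb4 stand farthest from 0.

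The 3 comparisons among treated groups asked whether cleavage of the peptides, blockade of NMDA receptors or the choice of stimulus mattered. For NMP peptides over PK-cleaved NMP peptides, 0.0827% of all rows and 0 of 61 members were called, with 2 members and 1.65% of all rows at an unadjusted p under 0.05. The members' median was 0.05, with 45 above 0, against 0.00 over all rows, and it was -0.01 without NMP peptides replicate 1 and 0.11 without PK-cleaved peptides replicate 1. Ndufb4 (-0.36), Ndufa12 (-0.27) and Cox7b (-0.18) were lowest, and Cox6a2 (0.41), Ndufa2 (0.20) and Cox6b2 (0.17) were highest.

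For NMP peptides with APV over NMP peptides, 1.43% of all rows and 0 of 61 members were called. Unadjusted, 2 members and 15.8% of all rows passed. The members' median was -0.03, against -0.01 over all rows, and it was 0.02 without NMP peptides replicate 1. Ndufs7, a core complex I subunit, was at -0.23 beside Cox6a2 (-0.76) and Cox6b2 (-0.31), and Ndufb4 (0.20), Ndufa1 (0.18) and Ndufa3 (0.18) were highest.

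Bicuculline over NMP peptides, 2 stimuli set side by side, gave calls for 0.175% of all rows and for 0 of 61 members, with 0 members and 2.12% of all rows at an unadjusted p under 0.05. The members' median was -0.04, against 0.00 over all rows, and it was 0.02 without NMP peptides replicate 1. The changes had the narrowest range of the 7 comparisons, from -0.12 for Ndufb7, -0.11 for Ndufb2 and -0.10 for Ndufb6 to 0.08 for Ndufa10, 0.07 for Sdha and 0.04 for Ndufa12. The interval stayed within 0.5 log2 units of 0 for 60 members, all but Cox6a2. Comparisons that share the DMSO or NMP peptide libraries are not independent of each other.

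Among the single members, Cox7b ranked first in limma's moderated test over all groups (adjusted p = 0.337). It encodes a small membrane subunit of cytochrome c oxidase and lies on the X chromosome (GRCm38.p6, X:106015700-106022450). Its log2 signal was 6.48, 6.57 and 6.54 with bicuculline, 6.46, 6.54 and 6.62 with NMP peptides, 6.83, 6.66 and 6.67 with PK-cleaved peptides, 6.66, 6.69 and 6.71 with peptides and APV, and 6.70 and 6.71 with DMSO. All bicuculline and NMP peptide libraries thus lay below every library of the other groups. This split of the groups was drawn after the values were seen. The share of all rows that separate in this way is not given here.
The difference was small. It was -0.17 for bicuculline over DMSO (SE 0.07, limma adjusted p = 0.996), -0.17 for NMP peptides over DMSO (SE 0.07, adjusted p = 0.971) and -0.18 for NMP peptides over PK-cleaved peptides (SE 0.06, adjusted p = 1). NMP peptides with APV over NMP peptides gave 0.15 (SE 0.06, adjusted p = 0.278). A change of -0.17 corresponds to 0.887 of the DMSO level for bicuculline and 0.891 for NMP peptides. None of these passed the adjustment over all rows, and Cox7b is described because of its values.

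Cox6a2, the heart and muscle form (7:128205435-128206366), had the widest spread of the tested members. Its log2 signal was 1.39, 2.20 and 2.40 with bicuculline, 1.97, 2.07 and 2.15 with NMP peptides, 1.89, 1.28 and 1.80 with PK-cleaved peptides, 1.18, 1.89 and 0.84 with peptides and APV, and 1.89 and 1.80 with DMSO. Every library with peptides and APV was below every NMP peptide library, but the group overlapped with all others. The change for NMP peptides with APV over NMP peptides was -0.76 (SE 0.27, 95% interval -1.33 to -0.19, limma adjusted p = 0.199). Its exons overlap those of Itgad on the opposite strand. Summed antilog signals of most marker lists also differed between these groups without overlap. They were 2.30 to 2.63 with peptides and APV, against 2.78 to 3.57 with NMP peptides, for 3 muscle markers, 414 to 429 against 337 to 399 for 9 astrocyte markers, and 346 to 364 against 386 to 465 for 6 inhibitory markers. Oligodendrocyte-lineage sums were likewise higher with peptides and APV, and sums of mural and endothelial markers, all below the filter, were lower. Microglial and excitatory sums overlapped. Each sum mostly reflects its highest genes, such as Sst among inhibitory markers. Sst, Gad1 and Actn2 did not overlap between these groups, while Gad2 and Myh7 did. The share of all rows without such overlap is not given here. The part of these sums in the result was not tested. Leaving out 1 library at a time moved the change between -1.05 and -0.53, and without NMP peptides with APV replicate 2 it was the lower of these.

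Ndufb4 (16:37647602-37654368) and Ndufa12 (10:94199035-94221440), accessory subunits of complex I, were lowest in the same single libraries. The log2 signal of Ndufb4 was 6.17, 6.35 and 5.71 with bicuculline, 5.51, 6.51 and 6.28 with NMP peptides, 6.63, 6.28 and 6.46 with PK-cleaved peptides, 6.25, 6.18 and 6.46 with peptides and APV, and 6.59 and 6.41 with DMSO. Bicuculline replicate 3 and NMP peptides replicate 1 stood apart from the rest. Without NMP peptides replicate 1 the change over DMSO was -0.11 in place of -0.40, and without bicuculline replicate 3 the bicuculline change was -0.24 in place of -0.42.
The log2 signal of Ndufa12 was 6.55, 6.72 and 6.43 with bicuculline, 6.22, 6.73 and 6.62 with NMP peptides, 6.91, 6.66 and 6.79 with PK-cleaved peptides, 6.64, 6.64 and 6.78 with peptides and APV, and 6.74 and 6.80 with DMSO. Of 50-base windows in their longest coding transcripts, 37.0% in Ndufb4 and 26.2% in Ndufa12 also occur in transcripts of other genes, among them Ndufb4c for Ndufb4, so their values are among the less certain ones. Ndufb4c, Gm16056 and Gm20519, the copies of Ndufb4, and Gm15920, that of Ndufa12, had 0 rows with a value. This does not show where shared reads were placed.

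**Figure D3:**
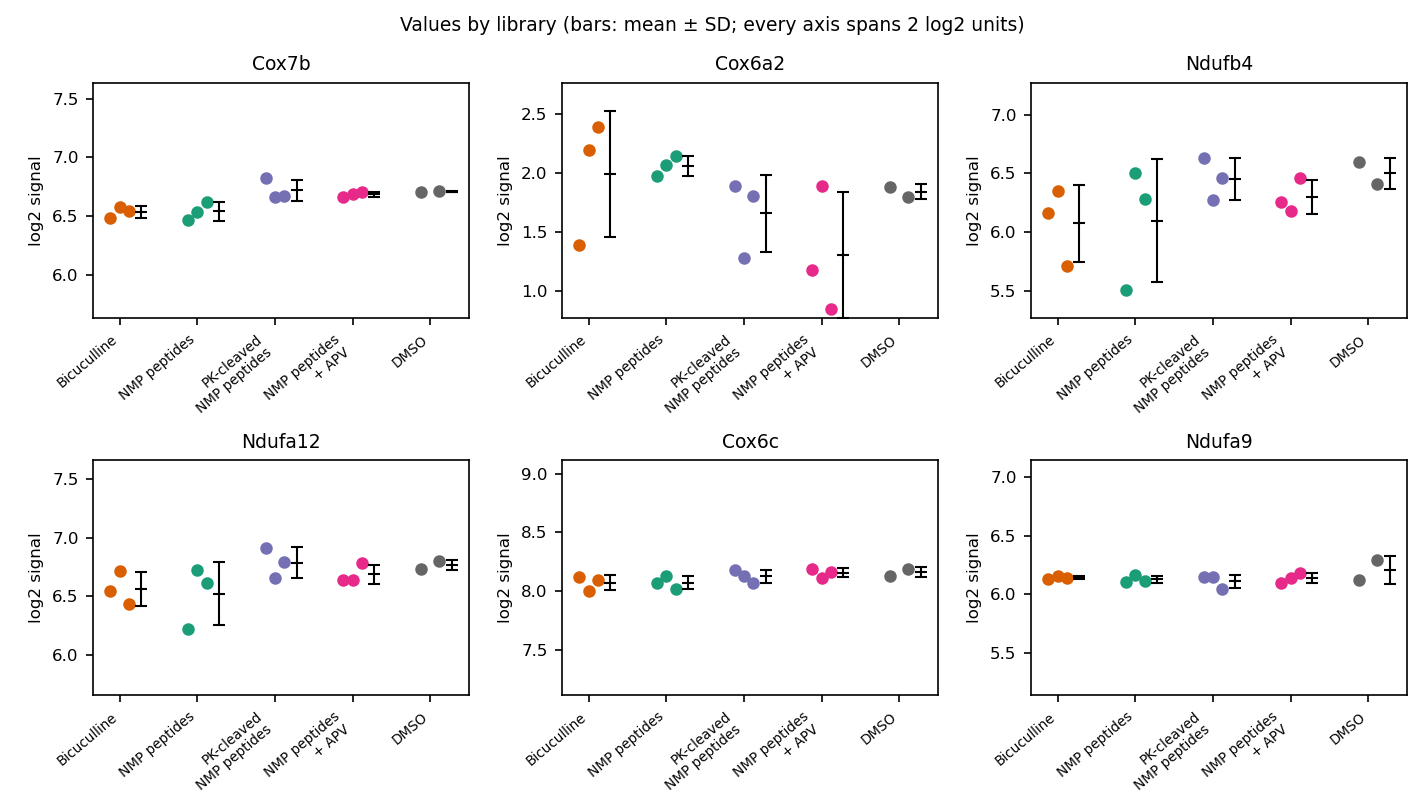
The log2 signal (vertical axis) of 6 members is shown by library (dots) in 5 groups (horizontal axis), with the group mean and SD as bars; every panel spans the same number of log2 units. Cox6c and Ndufa9, the members with the smallest spread, are flat, Cox7b is slightly lower with bicuculline and NMP peptides, and Ndufb4 and Ndufa12 have single low libraries.

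The steadiest tested members were Cox6c, Ndufa9 and Cox5b, with a within-group SD of 0.0533, 0.0536 and 0.0569 log2 units. The log2 signal of Ndufa9, an accessory subunit of complex I, was 6.13, 6.16 and 6.14 with bicuculline, 6.10, 6.16 and 6.12 with NMP peptides, 6.15, 6.14 and 6.05 with PK-cleaved peptides, 6.10, 6.14 and 6.18 with peptides and APV, and 6.12 and 6.29 with DMSO. All groups overlapped. The most variable tested members were Cox6a2 (SD 0.392), Ndufb4 (0.313) and Ndufa2 (0.267). Below the filter the spread was wider, with SDs within single groups of up to 1.06 for Cox7a1 and 0.882 for Ndufa4l2. The median within-group SD was 0.116 over the tested members and 0.127 over all tested rows. Among the most abundant rows alone it was 0.114 for 58 members and 0.104 for 1742 other rows, so at like abundance the members were not the steadier ones.

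The spread that the members did show was largely shared between genes and ran between libraries of one treatment. The mean log2 level of the 61 members per library averaged 6.45 ± 0.06 with bicuculline, 6.49 ± 0.07 with NMP peptides, 6.46 ± 0.12 with PK-cleaved peptides and 6.45 ± 0.09 with peptides and APV (SD, n = 3 each), and 6.45 ± 0.004 with DMSO (SD, n = 2). These group means spanned 0.0406 log2 units, less than the within-group SD of 0.0846.
In PK-cleaved peptides replicate 1, 58 of 61 members lay above their group mean, by 0.13 on average, and in replicate 2 only 4 did, at an average of -0.10. Of all tested rows, 51.25% lay above it in replicate 1 and 43.43% in replicate 2. Bicuculline replicate 3 (51 members above, average 0.07), NMP peptides replicate 1 (49 above, 0.08) and NMP peptides with APV replicate 2 (48 above, 0.11) were the high libraries of their groups. The shares of all tested rows above the group mean there were, in the same order, 44.63%, 44.96% and 41.99%. In all 4 high libraries at once, 40 of the 61 members exceeded their group mean. These libraries were picked because the members were high in them, so a large joint count follows from the choice. The share of all rows that did so is not given here.

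Some members ran against this pattern, in libraries picked because most members were high there. In both NMP peptides replicate 1 and bicuculline replicate 3, 7 members lay below their group mean, namely Ndufb4, Ndufa12, Ndufa3, Ndufa10, Ndufa9, Uqcrc2 and Cox7a2. Ndufb4 deviated there by -0.59 and -0.36, and Ndufa12 by -0.30 and -0.13. In PK-cleaved peptides replicate 1, by contrast, 6 of these 7 lay above the mean, all but Ndufa10.

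Pairs of members had a median correlation of deviations of 0.46 over 14 libraries, against 0.02 for pairs in an evenly spaced sample of tested rows. The value was 0.81 within complex III, 0.58 within complex I, 0.33 within complex IV and 0.20 within complex II. Of the other lists, cytosolic ribosomal proteins (0.60), the mitochondrial ribosome (0.51) and ATP synthase (0.48) were above the members' value. Glycolysis (0.43), assembly factors (0.35), TCA cycle (0.30), Cycs with Cyc1 and Ndufab1 (0.22) and biogenesis regulators (0.18) were below it. So were the shortest 20% of rows by exon length with members left out (0.22). The points of each pair share their libraries and their normalisation, and the values are a description.

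Transcript length moved with these deviations. By exon length, 49 of the 61 members belong to the shortest 20% of tested rows. With members left out, the shortest 20% deviated by 0.13 in PK-cleaved peptides replicate 1, -0.10 in replicate 2, 0.07 in NMP peptides replicate 1, 0.05 in NMP peptides with APV replicate 2 and 0.04 in bicuculline replicate 3. The longest 20% deviated the opposite way in these libraries, by -0.14, 0.09, -0.10, -0.06 and -0.05. With DMSO the short rows and the members parted: the short rows deviated by 0.04 in replicate 2 and -0.04 in replicate 3, and the members by -0.003 and 0.003. The part of length in the shared deviations was not tested.

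**Figure D4:**
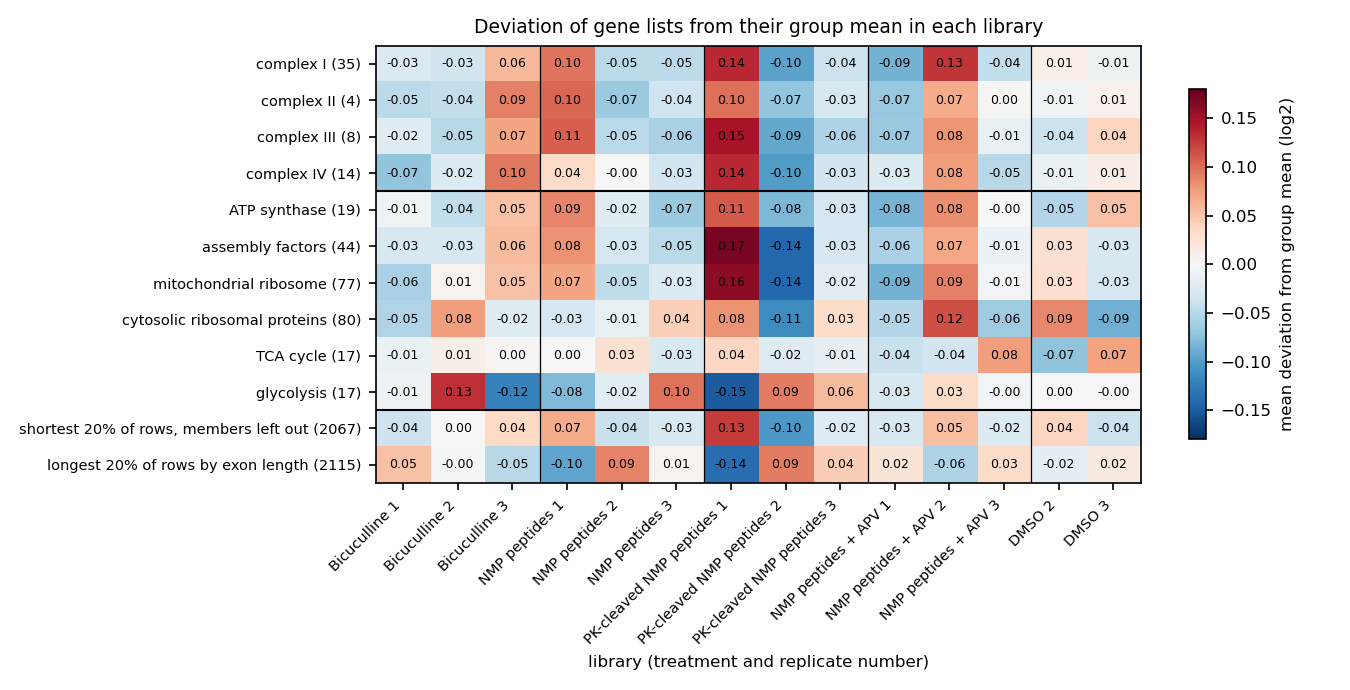
Each cell gives the mean deviation from the group mean (log2, colour and number) of one gene list (vertical axis, number of rows in parentheses) in one library (horizontal axis). The 4 complexes, ATP synthase, assembly factors and the mitochondrial ribosome are high together in PK-cleaved peptides replicate 1 and low together in replicate 2, the shortest rows share this pattern and the longest rows show the opposite one.

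Other genes of energy metabolism gave the same count. The lists were ATP synthase (19 tested genes), assembly factors (44), Cycs with Cyc1 and Ndufab1 (3), regulators of mitochondrial biogenesis (11) and TCA cycle (17). Also used were glycolysis (17), mitochondrial ribosome (77) and cytosolic ribosomal proteins (80). In each list, 0 genes were called higher and 0 lower by limma in each of the 7 comparisons. Over all rows the share called ran from 0% to 1.43%, so counts of 0 in lists of this size lie near it. Of these genes, Cycs encodes the mobile carrier cytochrome c. Cyc1 and Ndufab1 encode subunits of complexes III and I that the symbol rule did not select. The mitochondrially encoded mRNAs had 0 rows with a value. For NMP peptides with APV over NMP peptides, 15.8% of all rows had an unadjusted p under 0.05. The unadjusted count was 7 of 44 assembly factors, 1 of 11 regulators, 5 of 77 mitochondrial ribosomal genes and 5 of 80 cytosolic ribosomal genes. It was 1 of 17 glycolytic genes, 0 of 19 ATP synthase genes and 0 of 17 TCA cycle genes. Of Cycs, Cyc1 and Ndufab1, 1 passed, namely Cyc1 of complex III (change -0.16). The count of assembly factors was near the share of all rows.
Cox11, a chaperone that delivers copper to cytochrome c oxidase, was 2.81, 2.53 and 2.59 with peptides and APV, against 3.23, 2.94 and 2.87 with NMP peptides. The libraries did not overlap, and the change was -0.37 (SE 0.11, limma adjusted p = 0.14). Cox11 was picked after its values were seen, and the share of all rows without such overlap is not given here. The glycolytic enzyme Hk2 was 0.34, 0.81 and 0.37 with peptides and APV, against 0.68, 1.30 and 1.57 with NMP peptides, a change of -0.68 (SE 0.32, limma adjusted p = 0.319). Its libraries overlapped. The coactivator Ppargc1a, a regulator of mitochondrial biogenesis, changed by -0.17 for bicuculline over DMSO and by -0.15 for NMP peptides over DMSO, with SEs of 0.14 in both, and neither was called.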

How the data were processed

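Ribosome-depleted total RNA was sequenced as paired reads of 100 bases, per the labels' protocols. Per the submitters' processing notes, the genome build was GRCm38.p6. The sources used here do not give the aligner, counter, annotation or strand setting. The deposited values are log2 signals. As antilogs to base 2, multiplied by exon kilobases, the libraries sum to between 1180000 and 1270000, as values per length would. Base e would give 8350000 to 9080000. All libraries share one sorted distribution, which hides read depth and any change in total RNA.

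Of 45802 rows, 27674 held no value. The lowest 40% of the rest by mean were dropped, which left 10877 rows. limma 3.58.1 in R 4.3.3 was fitted to all 14 libraries with 1 mean for each group (variance trend, two-sided, Benjamini-Hochberg over all tested rows, adjusted p under 0.05 called), and the fit was tested on simulated data. Named members are the 3 lowest and 3 highest changes per comparison, the extremes of each complex and of spread, and the isoform pairs. Cox11, Hk2 and Ppargc1a were chosen after their values were seen. Members and lists were chosen with earlier results of these data known.

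Same-numbered libraries of NMP peptides and PK-cleaved peptides deviated together (r across rows 0.51, 0.499 and 0.613). For that reason only, they were taken as pairs in an alternative fit. The reported fit does not use the pairing, so its standard errors and p-values for this comparison ignore it. Other pairs of groups did not deviate together at every number, or share only replicates 2 and 3. Gene positions are from RefSeq. Exon lengths and shared sequence are from GENCODE on the same build.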

Additional observations from a re-analysis of the deposited data

How the results depend on the processing

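Under 22 other settings besides the reported one (no or a stricter filter, a pseudocount, median centring, no variance trend, fits of the compared groups alone, a replicate block, and each library left out), 0 members were called in any comparison. The smallest limma adjusted p of a member was 0.0776. In the fit with the replicate block 0 members were called, also for NMP peptides over PK-cleaved peptides with those groups alone, an alternative chosen after seeing the data. The block changed no call of a member. Sign under each setting was followed for the 3 lowest and 3 highest changes of each comparison and not for the other members. Among those, the changes that turned sign, none of them called, were those of Cox6a2 for bicuculline over DMSO (-0.047 without bicuculline replicate 3, up to 0.46) and for PK-cleaved peptides over DMSO (0.0061 without PK-cleaved peptides replicate 2, down to -0.30). Cox6b2 turned for NMP peptides with APV over DMSO (0.0028 without DMSO replicate 2, down to -0.37) and for NMP peptides over PK-cleaved peptides (-0.028 without PK-cleaved peptides replicate 2, up to 0.30). Without NMP peptides replicate 1, Ndufb4 was at -0.094 for NMP peptides with APV over NMP peptides (up to 0.40 without another library), and for bicuculline over NMP peptides Ndufa12 was at -0.11 (up to 0.15) and Ndufb6 at 0.013 (down to -0.16). Ndufa12 was at -0.031 there without bicuculline replicate 2. The causes were not tested.

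Calls over all rows, the background of the member counts, moved more: 51 for bicuculline over DMSO (27 to 55 over the settings), 2 for NMP peptides over DMSO (0 to 11), 0 for PK-cleaved peptides over DMSO (0 to 1), 68 for NMP peptides with APV over DMSO (5 to 83), 9 for NMP peptides over PK-cleaved peptides (1 to 12), 156 for NMP peptides with APV over NMP peptides (57 to 206), 19 for bicuculline over NMP peptides (4 to 34) and 179 among 5 groups (103 to 193). The median standard error of a member was 0.0992 log2 units against DMSO and 0.0887 between groups of 3, and changes of over 2 standard errors also went uncalled, such as that of Cox7b for NMP peptides over PK-cleaved peptides (-0.18, SE 0.06).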
